A study of Mus musculus with 3 samples.

Results

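The genes described here build the kinetochore and run the mitotic checkpoint. They were chosen by symbol alone: the single-letter CENP genes, the NDC80 and MIS12 complex genes, Knl1, the BUB and MAD checkpoint genes, the 3 Aurora kinase genes, Plk1, Ttk, Incenp, Birc5, Cdca8 and Cdc20, each with a transcript typed as protein coding. The rule found 43 of the 55536 genes in the tables. No measured value enters the rule. All values come from total RNA-seq of F121-9, embryonic stem (ES) cells of a mouse hybrid between the Cast and 129 strains. The labels give 1 group with 3 biological replicates, all at passage 14 and made from 400 ng of RNA with ERCC spike-ins, and name no treatment. F121-9 is a single line, and nothing in the labels says whether the replicates were separate cultures. Every p-value below therefore holds for these 3 libraries only. Those on spread describe how the libraries scatter, and that scatter may be technical. Those on the 2 quantifications describe differences between 2 estimates from the same reads. The study has no second condition, and the comparisons are those between members, between libraries and between 2 quantifications of the same reads.

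The kinetochore is the protein assembly that ties each chromosome to spindle microtubules during cell division. It is founded on nucleosomes that carry CENP-A, the centromeric histone H3 variant. The constitutive centromere-associated network sits on these nucleosomes, and the KMN network (Knl1, the MIS12 complex and the NDC80 complex) grips microtubules. The chromosomal passenger complex corrects faulty attachments through Aurora B, and the spindle checkpoint holds back the anaphase-promoting complex until all chromosomes are attached. Mouse ES cells divide rapidly, and many of these genes are known to be transcribed mainly in the G2 and M phases of the cell cycle.

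The libraries held 10425623, 9575747 and 9974983 estimated counts in genes, of which the members took 36969, 35002 and 35994. Counts scaled to library size are given as CPM. The 3 counts that a 0 cannot exclude equal 0.288 to 0.313 CPM, and the members had 155 to 2231 counts in a library. Over genes counted at least as high as the lowest member, replicate 1 stood apart from replicates 2 and 3 in a way that follows transcript length. The members' own values are given further on. All 8 ES cell markers were expressed, with a summed level of 2442 to 2723 TPM (a level scaled to transcript length and library). Of 9 fibroblast (feeder cell) markers 1 was expressed, the list summed to 3.37 to 4.40 TPM, and Col3a1, Postn, Lum and Dcn had 0 counts. Of 8 markers of differentiated lineages 3 were expressed, summing to 72.3 to 79.8 TPM, most of it Tfap2c at 66.9 TPM. The 6 germ cell markers were all expressed, summing to 107.4 to 122 TPM with Dazl at 63.4 TPM, beside which the level of Aurkc, a kinase gene best known from germ cells, is given below. Their part in any member's level was not tested.

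All 43 members were expressed, defined as a TPM of at least 1 in each library, against 23.6% of all 55536 genes and 52.1% of 22028 protein-coding genes. The median member stood at 39.0 TPM, above the median of 19.7 TPM of the 11478 expressed protein-coding genes, and 35 of the 43 lay above that median. Together the members took 0.318 ± 0.00306% of all TPM (SD, n = 3), with sums of 3196, 3200 and 3145 TPM. These are bulk libraries, so the share of cells in mitosis and the RNA per mitotic cell cannot be told apart. Mean levels ran 27.1-fold from Spc24 to Knl1, with 13 members at 100 TPM or more and 9 under 20 TPM. Of the 42 pairs of neighbours in the order of mean TPM, 32 had ranges that overlapped over the libraries and so do not differ beyond their spread. The 10 gaps followed Spc24, Birc5, Cenpa, Cdc20, Cenpv, Plk1, Bub3, Aurkb, Cenpk and Cenps. Longer transcripts had lower TPM among the members (Spearman rho -0.61 over 43 genes, which share the libraries). Among 8191 genes at or above the lowest member's count level rho was -0.59. That floor on counts admits short transcripts only at higher TPM, so the second rho is partly set by the filter. It therefore cannot show whether the members' relation is general.

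**Figure D1:**
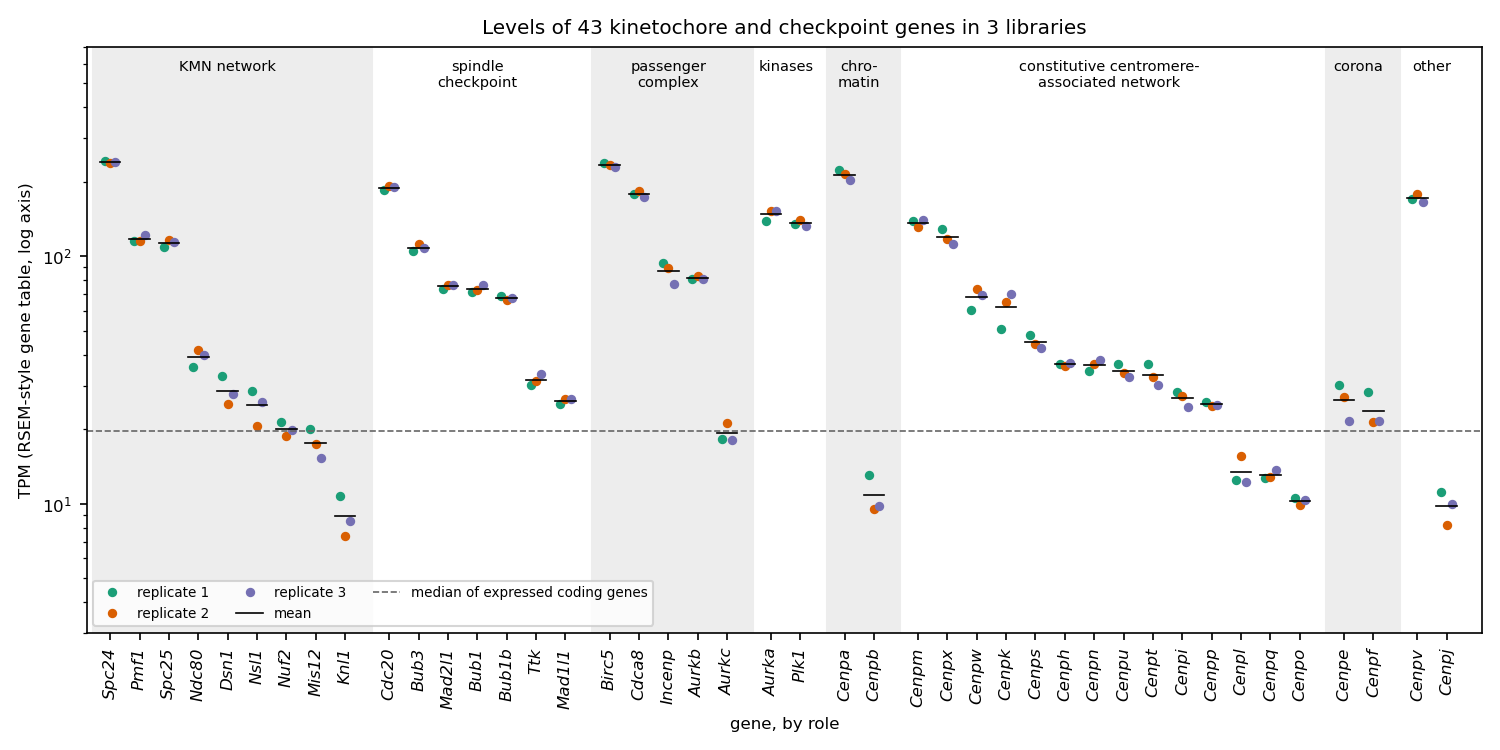
Level of each of the 43 members, grouped by role, as TPM on a log axis. Points are the 3 libraries, short bars their means, and the dashed line is the median of expressed protein-coding genes at 19.7 TPM. The spread between libraries is small beside the 27.1-fold range between Spc24 and Knl1.

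The KMN network had the widest range of any role group, although its 9 products work as 1 assembly. Spc24 and Spc25 form the inner end of the NDC80 complex, which attaches to the MIS12 complex, and Ndc80 and Nuf2 form the end that binds microtubules. Spc24 (ENSMUSG00000074476.6, chromosome 9, 21755442 to 21760303, minus strand) had 243, 237 and 240.1 TPM in replicates 1, 2 and 3. Spc25 had 108, 117 and 114 TPM. The inner pair was therefore high in every library, and Spc24 was above Spc25 in each. Ndc80 (ENSMUSG00000024056.10, chromosome 17, 71496100 to 71526857, minus strand) had 35.6, 41.8 and 39.7 TPM, and Nuf2 had 21.4, 18.8 and 19.8 TPM. The microtubule-binding pair lay below the inner pair in every library, with no overlap. The ratio of Spc24 to Ndc80 in TPM was 6.82, 5.68 and 6.05, and that of Spc24 to Nuf2 was 12.1 ± 0.650. In the kallisto-style tables, a second quantification of the same reads, the ratio of Spc24 to Ndc80 was 7.50 ± 0.408.

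In the MIS12 complex, the bridge between the inner kinetochore and the NDC80 complex, the Pmf1 subunit gene was far above the others. Pmf1 had 115, 115 and 122 TPM, whereas Mis12 had 20.1, 17.4 and 15.3 TPM. Dsn1 had 32.8, 25.2 and 27.8 TPM and Nsl1 28.6, 20.7 and 25.7 TPM. Pmf1 exceeded its 3 partners in each library, by 6.77 ± 1.12 times for Mis12, 4.16 ± 0.565 for Dsn1 and 4.78 ± 0.776 for Nsl1, whereas the ranges of Dsn1 and Nsl1 overlapped. Knl1, the large scaffold that recruits BUB proteins, had 10.8, 7.38 and 8.47 TPM, the lowest mean of all members. Its range overlapped those of Cenpj, Cenpo and Cenpb. By kallisto-style TPM Cenpj (6.67 ± 0.929) and Cenpb (8.26 ± 1.66) had lower means than Knl1 (8.46 ± 1.67). Exons of Mis12 overlap those of Derl2 on the opposite strand over 7.69% of its exonic bases, and Derl2 stood at 50.9 ± 2.30 TPM. The strand setting of the counting is not given in the sources used here, so Mis12 reads could include some of Derl2.

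The 7 spindle checkpoint genes had a median of 73.6 TPM and were led by the checkpoint's target. Cdc20, the activator of the anaphase-promoting complex (ENSMUSG00000006398.15, chromosome 4, 118432901 to 118437352, minus strand), had 185, 192 and 191 TPM. Mad2l1, whose product MAD2 binds and holds CDC20, had 73.6, 76.5 and 76.8 TPM. Cdc20 was above Mad2l1 by a ratio that hardly moved between libraries, 2.52, 2.51 and 2.48. By kallisto-style TPM the ratio was lower, at 2.08 ± 0.00986. Mad1l1, which presents MAD2 at unattached kinetochores, had 25.2, 26.6 and 26.4 TPM and was the lowest of the group. The ratio of Mad2l1 to Mad1l1 was 2.92, 2.88 and 2.91. Of the BUB genes, Bub3, the adaptor that docks on KNL1, had 105, 112 and 108 TPM and was above both kinase-related partners in each library. Bub1 had 71.5, 73.2 and 76.3 TPM. Bub1b, which encodes BUBR1, had 68.8, 66.2 and 67.6 TPM. Bub1 was 1.09 ± 0.0469 times Bub1b, and their ranges did not overlap. Ttk, which encodes the MPS1 kinase that starts checkpoint signalling, had 30.2, 31.2 and 33.3 TPM. For Cdc20, 11.4% of its 50-base words recur in other genes, nearly all in the processed pseudogene Gm7856 at 3.69 ± 1.09 TPM, so a small part of its reads is uncertain.

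The chromosomal passenger complex pairs Aurora B with the scaffold INCENP and the targeting subunits survivin (Birc5) and borealin (Cdca8). Birc5 (ENSMUSG00000017716.15, chromosome 11, 117849251 to 117855743, plus strand) had 237, 234 and 229 TPM and was the second highest member. Cdca8 had 179, 184 and 174 TPM. Both targeting subunits exceeded the kinase gene, Birc5 by 2.85 ± 0.0706 times and Cdca8 by 2.19 ± 0.0385 times. By kallisto-style TPM these ratios were 3.09 ± 0.117 and 2.53 ± 0.0496, so their size depends on the quantification. Aurkb had 80.8, 83.3 and 81.1 TPM. Incenp had 93.6, 89.7 and 77.3 TPM, and its range overlapped that of Aurkb. The kallisto-style tables placed Incenp at 55.2 ± 6.66 TPM and Aurkb at 64.7 ± 1.80 TPM, so the order of this pair depends on the quantification.

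The 3 Aurora kinase genes were ordered Aurka, Aurkb and Aurkc in every library. Aurka, the spindle pole kinase (ENSMUSG00000027496.15, chromosome 2, 172356190 to 172370535, minus strand), had 139, 152 and 153 TPM, 1.81 ± 0.0819 times Aurkb. Aurkc had 18.3, 21.2 and 18.1 TPM, and Aurkb exceeded it by 4.27 ± 0.305 times. The Aurkc level is uncertain, because 54.8% of its 50-base words recur in other genes on the same strand. The largest share, 40.6%, is held by the processed pseudogene Gm12463, which stood at 35.8 ± 0.826 TPM and so above Aurkc itself. Smaller shares recur elsewhere for Plk1 (6.70%, in the pseudogene Plk-ps1) and Ndc80 (5.23%). Plk1, the Polo kinase of mitotic entry, had 135, 139.6 and 133 TPM, and its range overlapped that of Aurka by a narrow margin.

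At the centromeric chromatin the 2 members lay near opposite ends of the order. Cenpa (ENSMUSG00000029177.9, chromosome 5, 30666777 to 30674830, plus strand) had 224, 214 and 203 TPM. Cenpb, which binds a repeated DNA element of centromeric satellites, had 13.1, 9.48 and 9.81 TPM. Cenpa was 20.1 ± 2.79 times Cenpb. On the TPM scale replicate 1 was the highest library for both. In normalized counts this held for Cenpb but not for Cenpa, which had 143, 144 and 136 CPM.

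The 14 genes of the constitutive centromere-associated network that the symbol rule takes had a median of 35.4 TPM. Their sum of 661, 660 and 658 TPM had a coefficient of variation (CV) of 0.265%. Cenpc1, whose symbol ends in a digit, is not among the 14 and stood at 14.7 ± 0.476 TPM. Cenpm was highest with 139, 131 and 139.8 TPM, and Cenpo lowest with 10.6, 9.85 and 10.4 TPM. Cenpx followed Cenpm with 129, 117 and 112 TPM. The partners CENP-S and CENP-X form a histone-fold pair with CENP-T and CENP-W, and their genes differed by a steady factor: the ratio of Cenpx to Cenps was 2.68, 2.64 and 2.64. The ratio of Cenpw to Cenpt was 1.65, 2.27 and 2.32, with replicate 1 low. Of the other members of the network, Cenpk, Cenph, Cenpn, Cenpu, Cenpi and Cenpp lay between 25.2 and 62.1 TPM, and Cenpl and Cenpq at 13.4 and 13 TPM. Cenpi was the one member on the X chromosome. Exons of Cenpu overlap Primpol on the opposite strand over 26.7% of its exonic bases, those of Cenpo overlap Adcy3 over 19.0% and those of Cenpp overlap Ippk over 12.3%. These 3 levels are therefore uncertain without the strand setting.

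The corona genes Cenpe, a kinesin motor that moves chromosomes to the spindle equator, and Cenpf, a large coiled-coil protein, were near each other. Cenpe had 30.3, 26.97 and 21.5 TPM and Cenpf 28.1, 21.4 and 21.6 TPM, with overlapping ranges. Their summed TPM had a CV of 15.5%, the largest of the role groups, whereas the normalized counts had CVs of 3.45% for Cenpe and 5.74% for Cenpf. On the TPM scale the short retained-intron transcript Cenpe-202 had 4.48, 5.95 and 0.230 TPM in the RSEM-style tables, and the coding Cenpe-201 (7910 nt) had 23.3, 21.02 and 21.3 TPM. The last 2 members carry a CENP name but belong to no complex above. Cenpv had 171, 179 and 166 TPM, and Cenpj, which encodes a centriole protein, had 11.2, 8.19 and 10 TPM.

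The partners of these complexes that the symbol rule does not take were all expressed as well, 56 of 56 genes in 5 lists, with a median of 51.0 TPM. In the list of centromere loading factors and remaining kinetochore genes (13 genes, median 34.1 TPM), Zwint, a KNL1 partner, was highest at 132 ± 8.44 TPM and Itgb3bp lowest at 13.2 ± 0.173 TPM. The list of RZZ complex and checkpoint silencing genes (6 genes, 41.4 TPM) ran from Zwilch, an RZZ subunit, at 225 ± 39.6 TPM to Mad2l1bp at 13.9 ± 0.733 TPM. The anaphase-promoting complex and its helpers (17 genes, 75.6 TPM) ran from Ube2s, a ubiquitin-conjugating enzyme, at 1076 ± 61.9 TPM to Cdc27 at 29.1 ± 3.26 TPM. Cyclins and anaphase genes (9 genes, 94.8 TPM) ran from Pttg1, the securin gene, at 1337 ± 57.4 TPM to Haspin at 15.9 ± 0.476 TPM. Mitotic motors and spindle assembly genes (11 genes, 43.5 TPM) ran from Kif20a at 113 ± 2.46 TPM to Kif14 at 6.53 ± 0.717 TPM.

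Between libraries the members' normalized counts had CVs of 0.433% (Cenpp) to 15.6% (Cenpb). The CV of normalized counts had a median of 5.25% in the members, against 4.14% from counting noise and against 5.23% for the 8191 genes at or above the lowest member's count level. edgeR's test of each gene's spread against the trend called 0 of 43 members at an adjusted p under 0.05, where 0.0373% of 13391 genes passed, and the smallest member adjusted p was 0.987. At an unadjusted p under 0.05 edgeR passed 2 of 43 members, against 4.56% of all genes tested. These were Cenpb, at an unadjusted edgeR p of 0.0309, and Cenpw, at 0.0384. The limma-voom test called 0 members too. Of the 56 partner genes edgeR called 0, with 1 at an unadjusted p under 0.05.

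A chi-square test against pure counting noise called 8 of 43 members, 18.6%. The background was 12.4% of all 13391 genes and 18.6% of the 8191 genes at or above the lowest member's count level. The members' share is at that of the 8191 genes, which have no upper bound on counts and were not matched to the members. Of the partner genes 13 of 56 passed. On the CPM scale Cenpb had 44.8, 34.1 and 34.98 CPM (adjusted p = 0.00152). Cenpt, whose product recruits the NDC80 complex, had 43.04, 36.9 and 33.4 CPM (adjusted p = 0.0171), and Cenpf had 192, 173 and 177 CPM (adjusted p = 0.0241). In these 3 genes replicate 1 was highest. Cenpw had 60.2, 76.2 and 71.7 CPM (adjusted p = 0.000917), and Ndc80 had 50.9, 61.6 and 60.5 CPM (adjusted p = 0.0216). Aurka had 167, 192 and 192 CPM (adjusted p = 0.000220). Replicate 1 was lowest in these 3 and in the remaining 2. Spc24 had 138, 159 and 151 CPM (adjusted p = 0.00538) and Bub1 165, 177 and 184 CPM (adjusted p = 0.0367). For Spc24 the order on the TPM scale differed, with replicate 1 highest. Without replicate 1 the test called 0 of 43 members and 0.2% of 13489 genes (0.232% of the 8191), so all 8 calls rest on that library. Cenpf and Spc24 also did not pass without replicate 2 (6 members called, against 10.8% of all genes and 16.5% of the 8191), nor Cenpt and Bub1 without replicate 3 (7 members called, against 10.9% and 16.6%). Without the filter on low counts 7 members passed, against 6.56% of 22939 genes and 16% of the 8191, and Bub1 did not (adjusted p = 0.0926). With ERCC scaling 14 members passed (32.6%), 3 of them among these 8 (Cenpb, Cenpf and Cenpt), against 34.7% of all genes tested and 50.1% of the 8191 genes. With kallisto-style counts 16 passed (37.2%), all 8 included, against 17.6% of all genes tested and 28.4% of 8171 genes of that count level. These counts were 1.72 times the RSEM-style ones in the members and 1.81 times over all genes. The 2 sets of calls were therefore not made at equal count depth.

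**Figure D2:**
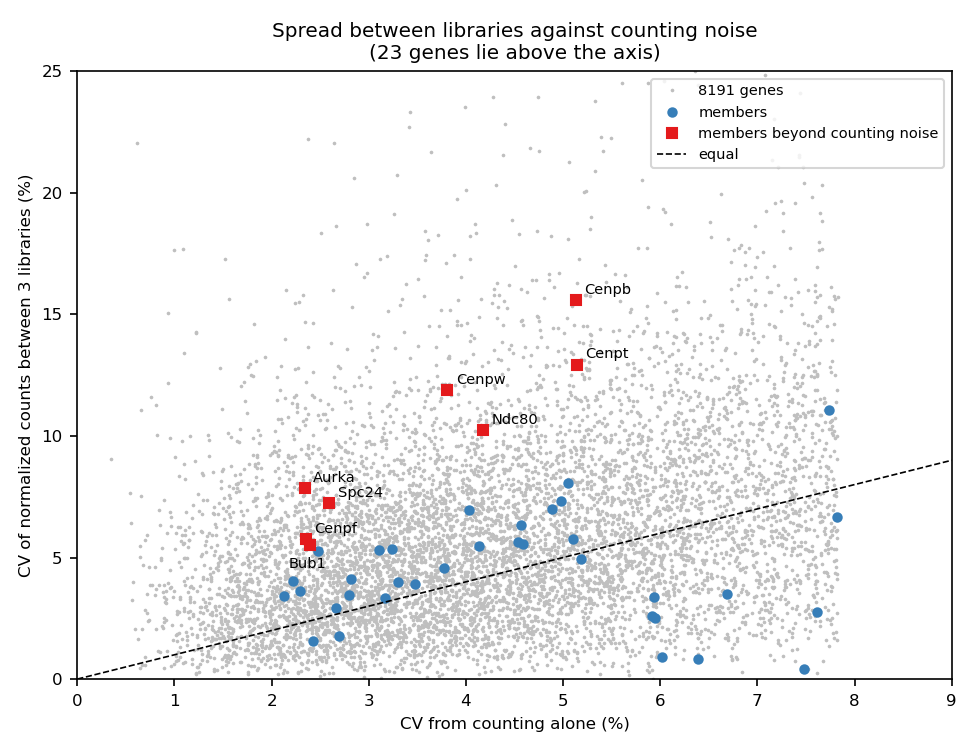
CV of normalized counts between the 3 libraries against the CV that counting alone gives, both in percent, for 8191 genes (grey) and the members (blue). Red squares are the 8 members past the chi-square test, from Bub1 at 5.53% to Cenpb at 15.6%, all above the dashed line of equality.

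Replicate 1 was the lowest library in CPM for 26 members, the highest for 9 and between the others for 8. Over all 13391 genes tested it was lowest in 38.6% and highest in 37.7%. The median log2 difference of replicate 1 from the mean of replicates 2 and 3 was -0.07 in the members and -0.00317 over all genes. Over the 8191 genes at or above the lowest member's count level, the difference went with transcript length. All 4 members over 4000 nt were highest in replicate 1: Cenpb (0.37), Knl1 (0.18), Cenpf (0.14) and Cenpe (0.08 on the log2 scale). Of 10 members under 1200 nt, 1 was highest there and 6 were lowest. Among all genes of that count level the same held, with 65.8% of 1840 genes over 4000 nt and 13.9% of 1148 genes under 1200 nt highest in replicate 1. The Spearman rho of length and difference was 0.25 over the 43 members and 0.45 over the 8191 genes. For the log2 difference of replicate 2 from replicate 3 it was -0.23 over the members and -0.09 over the 8191 genes. Among the members alone, the relation with length is therefore of similar size between replicates 2 and 3. Cenpt, at 1720 nt, had the second largest positive difference at 0.29. The difference was positive in 14 members and negative in 29. Scaling to the ERCC spike-ins shifts every gene alike, which put the median of all genes at 0.18 and that of the members at 0.12, with 39 members positive and 4 negative, so only differences relative to all genes can be read here.

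**Figure D3:**
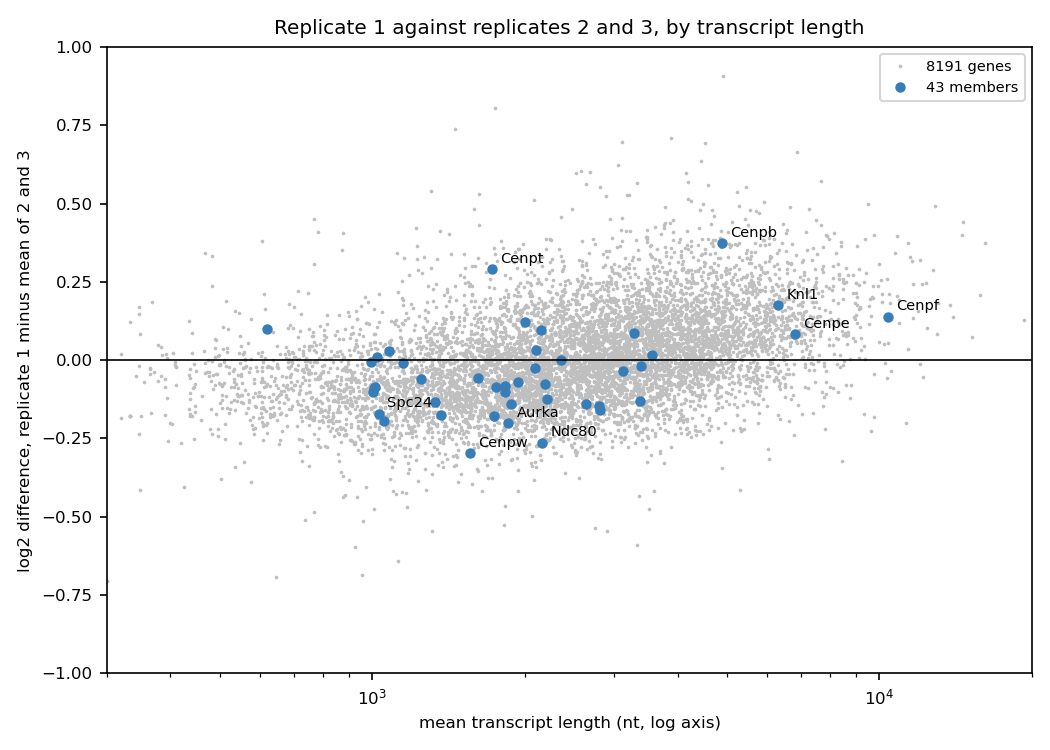
Log2 difference in CPM of replicate 1 from the mean of replicates 2 and 3 against mean transcript length in nucleotides (log axis), for 8191 genes (grey) and the 43 members (blue). The 4 members over 4000 nt, Cenpb, Knl1, Cenpe and Cenpf, lie above 0, and Cenpw and Ndc80 lie lowest.

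The kallisto-style gene levels were lower than the RSEM-style ones for 42 of 43 members, as for most genes. A limma test paired within library called 0 of 43 members at an adjusted p under 0.05 and a difference of at least 1 in log2(TPM + 1), against 13.1% of 14790 genes. Without the minimum difference 32 members were lower in the kallisto-style tables and 0 higher, against 61.3% and 16.3% of all genes, and 35 of 43 had an unadjusted p under 0.05, against 79.5% of all genes. The members' median difference was -0.27, and that of all genes -0.25. Incenp had the largest at -0.65 ± 0.05 (SE), Cenpe stood at -0.61 ± 0.08, and Cenpu was the one member with a positive value at 0.13 ± 0.05 (limma adjusted p = 0.0616).

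The annotation gives the members 237 transcripts, 124 of them protein coding. Both quantifications put the same transcript first for 40 of 42 members with several transcripts (95.2%, against 88.1% of 10482 expressed protein-coding genes). The exceptions were Cenpk and Nsl1. In the RSEM-style tables Cenpk-201 (1217 nt) led with 49.5, 40.4 and 40.9% of the gene, and in the kallisto-style ones the short Cenpk-207 (351 nt) with 30.8, 47.95 and 46.5%. For Nsl1 the long Nsl1-202 (4879 nt) took 40.7, 61.8 and 51.5% in the RSEM-style tables, and Nsl1-201 (608 nt) took 62.5, 48.98 and 56.4% in the kallisto-style ones. In 20 of the 42 members with several transcripts, 1 transcript took over 90% of the RSEM-style TPM. The share over other genes was not computed.

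Cenpa and Mad2l1 were the 2 members whose leading transcript is not typed as protein coding, in either quantification. In the RSEM-style tables the leading transcript was protein coding for 41 of 43 members. The share was 92.8% of 10482 expressed protein-coding genes with several transcripts, so such members are not unusually many. For Cenpa the leading transcript was Cenpa-202, typed as a target of nonsense-mediated decay, the pathway that degrades mRNAs with an early stop codon. It took 37.96, 41.8 and 46.6% of the RSEM-style TPM and 49.3, 52.3 and 54.4% of the kallisto-style TPM. The coding Cenpa-205 took 25.8, 29.7 and 27.4% in the RSEM-style tables and was below Cenpa-202 in each library. Cenpa-202 holds an exon of 137 nt (chr5:30669692-30669828, plus strand, mm10) that Cenpa-205 skips. The exon carries a stop codon, which ends the reading frame after 42 codons in place of 134. The sequences across the end of exon 1 show the switch. They share the first 20 bases, which are the end of exon 1, and the early stop codon is in capitals.
Cenpa-202: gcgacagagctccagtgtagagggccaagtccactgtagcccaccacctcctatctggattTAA
Cenpa-205: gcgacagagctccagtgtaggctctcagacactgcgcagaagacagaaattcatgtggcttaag
Both were read from the GENCODE M21 transcripts. The transcripts differ at their ends too, the last exon of Cenpa-205 reaching 452 nt further, so the shares do not measure the inclusion of this exon alone.

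For Mad2l1 the leading transcript was Mad2l1-203, typed as retained intron, with 50.4, 50.3 and 46.9% of the RSEM-style TPM and 56.1, 55.3 and 53.2% of the kallisto-style TPM. The coding Mad2l1-201, with a frame of 205 codons, took 47.1, 47.98 and 50.9% of the RSEM-style TPM, so the order of this pair changed between libraries there. Mad2l1-203 keeps the first intron of Mad2l1-201, 358 nt at chr6:66535600-66535957 (plus strand, mm10). At the junction the spliced form passes from exon 1 to exon 2 (capitals in the first line), and the other form runs on into the intron, whose first 2 bases are in capitals.
Mad2l1-201: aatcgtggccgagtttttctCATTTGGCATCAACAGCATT
Mad2l1-203: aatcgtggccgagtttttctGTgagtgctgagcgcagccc
The 2 transcripts also differ at the last exon, where Mad2l1-203 splices an intron that Mad2l1-201 keeps, so the share does not measure the first intron alone.

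Transcripts not typed as protein coding took over 20% of the RSEM-style TPM in 6 of the 36 members that have such transcripts, against 26.2% of 9178 expressed protein-coding genes. Their median share was 3.55% in these members and 6.04% in those genes. Beside Cenpa and Mad2l1 the 6 were Cenpu (35.5, 41.5 and 48.1%), Cenpl (19, 66.05 and 20.7%), Cenpk (34.3, 25.1 and 24.8%) and Cenpt (17.6, 28.4 and 24.7%). Cenpl was high in replicate 2 alone, where Cenpl-205 was listed at 4.85 TPM and at 0 in the other libraries, on 168 counts for the whole gene.

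**Figure D4:**
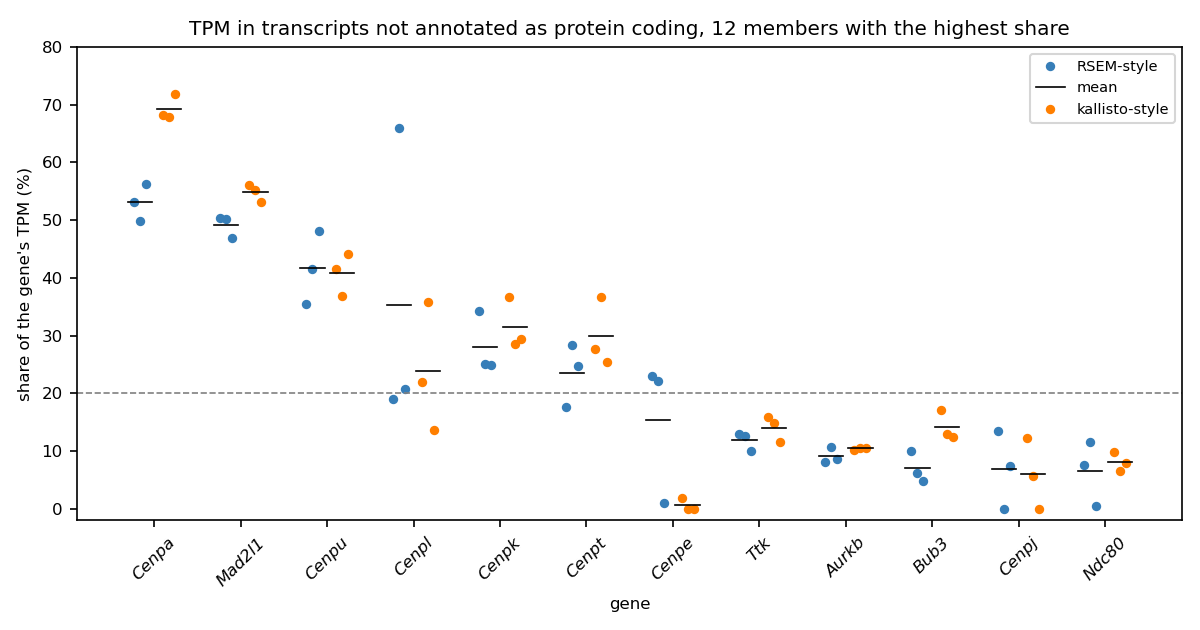
Share of each gene's TPM, in percent, in transcripts not typed as protein coding, for the 12 members with the highest share, in the RSEM-style (blue) and kallisto-style (orange) tables. Points are libraries and bars means. Cenpa and Mad2l1 stand near or above 50% in all libraries of both, and Cenpl is spread from 19.0% to 66.0% in the RSEM-style tables.

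Of 111 member transcripts tested by limma between the quantifications, 13 were called (11.7%, against 18.9% of 28903 transcripts), 9 higher in the kallisto-style tables and 4 in the RSEM-style tables. Without the minimum difference 68 passed, against 61.6% of all transcripts. The 13 called transcripts belong to 11 genes, and 5 of them are protein coding. Cenpa-209, a coding fragment of 369 nt, had 47.1, 43.9 and 31.9 TPM by RSEM and 21.1, 16.9 and 10.6 TPM by kallisto, higher by RSEM in each library (difference -1.32 ± 0.10, SE, limma adjusted p = 0.00356). Incenp-208 (577 nt, coding) had 36.1, 40.4 and 23.4 TPM by RSEM and 12.3, 14.6 and 8.23 TPM by kallisto, in the same direction (limma adjusted p = 0.00113). Cenpm-201 (789 nt, coding) went the other way, with 25.99, 16.5 and 15.6 TPM by RSEM and 47.9, 43.95 and 36.5 TPM by kallisto (limma adjusted p = 0.00764). The other coding ones were Bub3-202 (difference 1.94 ± 0.16) and Cenpi-204 (1.28 ± 0.10), both higher by kallisto. The noncoding ones higher by kallisto were Bub3-207, Cenps-203, Cenpn-204, Cenpv-202, Cenpv-203 and Ndc80-203, at differences of 1.15 to 2.39, and those higher by RSEM were Cdc20-202 (-1.80 ± 0.20) and Cenpl-204 (-1.03 ± 0.14).

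Some short elements that the symbol rule did not use were more frequent in the members' promoters than in all promoters. RefSeq promoters (build GRCm38.p6, 250 bases before to 50 after the start) were matched for 39 of the 43 members, 44 promoters in all. Those of Spc24, Nsl1, Aurkb and Incenp were not matched. The cell cycle genes homology region is an element known from promoters active in G2 and M, often placed near the start and downstream of CCAAT boxes, which the factor NF-Y binds. It was searched as TTTGAA or TTCGAA on both strands, and the CCAAT box as CCAAT on both strands. The homology region was found in 43.2% of the member promoters, against 19.2% of all 32851 promoters and 13.7% of 11583 promoters of expressed protein-coding genes. Within 50 bases of the start it was found in 34.1%, against 5.31% and 3.51%. A CCAAT box was found in 65.9% of the member promoters, against 37.4% of all and 38.6% of the expressed ones. At least 2 CCAAT boxes were found in 38.6%, against 11.7% and 14.8%. A homology region near the start together with a CCAAT box was found in 29.5% of the member promoters, against 2.24% and 1.71%. Words known for E2F binding (TTCCCGC or TTGGCGC or TTCGCGC or TTGCCGC, both strands) were found in 20.5%, against 9.57% of all and 17.3% of the expressed ones, and TATAAA (both strands) in 2.27%, against 13.6% and 6.66%. These are matches of letters and show no binding.

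The homology region lay within 50 bases of the start in 15 members, upstream in 4 and downstream in 11. Among them were 5 of the 7 checkpoint genes, both kinase genes Aurka and Plk1, and Cenpa. The windows of 30 bases around these 8 are shown to compare the element and its flanks, with the element in capitals, written 5′ to 3′ on the strand of the gene.
Cdc20 (chr4:118437344-118437373, minus strand): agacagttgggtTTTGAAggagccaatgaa
Bub3 (chr7:131560315-131560344, plus strand): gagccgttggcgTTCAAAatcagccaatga
Bub1 (chr2:127831828-127831857, minus strand): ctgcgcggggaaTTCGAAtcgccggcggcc
Bub1b (chr2:118598231-118598260, plus strand): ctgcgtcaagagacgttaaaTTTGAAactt
Ttk (chr9:83834684-83834713, plus strand): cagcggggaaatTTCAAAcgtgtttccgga
Aurka (chr2:172370521-172370550, minus strand): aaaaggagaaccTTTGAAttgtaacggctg
Plk1 (chr7:122159453-122159482, plus strand): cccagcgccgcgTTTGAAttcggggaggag
Cenpa (chr5:30666890-30666919, plus strand): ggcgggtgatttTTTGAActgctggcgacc
The element reads TTTGAA on the gene's strand in 5 of these, TTCAAA, its reverse complement, in Bub3 and Ttk, and TTCGAA in Bub1. Among the others with the element near the start were Spc25, Cenpw, Ndc80, Cenpn, Cenpf and Knl1. Of the 14 members in the constitutive network, 2 had the element near the start (Cenpw and Cenpn). The upstream sequence of Cdc20, the highest of the checkpoint genes, shows the arrangement with both elements in capitals: a CCAAT box 53 bases before the start, the homology region at 18 and a second CCAAT box at 8.
Cdc20 (chr4:118437344-118437593, minus strand): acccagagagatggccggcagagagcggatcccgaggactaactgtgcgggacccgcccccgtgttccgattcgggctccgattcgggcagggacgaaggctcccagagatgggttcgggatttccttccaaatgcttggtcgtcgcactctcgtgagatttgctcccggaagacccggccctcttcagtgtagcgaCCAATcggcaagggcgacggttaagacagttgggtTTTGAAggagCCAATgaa
The 15 members with the element near the start had a median of 73.6 TPM (8.87 to 213 TPM), and the other 24 with a matched promoter had 27.6 TPM (9.79 to 233 TPM). The ranges overlap almost entirely, and the difference is given as a description with no test.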

How the data were processed

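Total RNA of 3 F121-9 libraries was quantified by the authors against GENCODE M21 on mm10, per the deposited notes. The deposited gene table and 1 transcript table came from transcriptome alignments and have RSEM's columns (RSEM-style), and a second transcript table came from the reads and has kallisto's columns (kallisto-style). Which quantifiers, aligner, versions and strand setting were used is not given in the sources used here. Expected counts (estimated counts) were deposited without normalization. The deposited TPM values are scaled per library over all features, spike-ins included. Transcript lengths are those deposited. FPKM and posterior columns were not used.

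Counts were rounded, without spike-ins and rows that carry tRNA numbers. With edgeR 4.0.16 (limma 3.58.1, R 4.3.3), after filterByExpr and TMM, each gene's quasi-likelihood dispersion was tested against the fitted trend with an F test. Counting noise was tested by chi-square against Poisson with 2 degrees of freedom. The quantifications were compared with limma on log2(TPM + 1) differences within library. All p-values were adjusted by Benjamini-Hochberg over all features tested, with calls under 0.05. Fold differences of low genes are understated by the pseudocount of 1. Intervals and the 3 counts that a 0 allows cover counting error only. Other values used Python 3.11.15, numpy 2.4.6, pandas 2.3.3 and matplotlib 3.10.9. The tests were checked on simulated data.

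The symbol rule and the gene lists were set with earlier results of these data known. The members given in every library were the highest and lowest of each role group, the NDC80, MIS12, Aurora and checkpoint genes, and those past a test. Partner lists were given by counts, median, highest and lowest. Transcripts were named where they passed the limma test or led in 1 quantification only. Alternatives were TPM thresholds, pseudocounts, size factors, ERCC scaling, filters, kallisto-style values and leaving out each replicate. Kallisto-style and left-out values of single members were added after seeing the data. The promoter window of 1 member is not reported here.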

Additional observations from a re-analysis of the deposited data

How the results depend on the processing

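No paired analysis was possible because the study has 1 group of libraries, so replicate numbers pair no samples between groups, and the limma tests pair only the 2 quantifications of a library. The counts of expressed members, of members variable by edgeR and of shared leading transcripts stayed within 1.5 times their value under every alternative run. The median level moved by less than 1 SD with a pseudocount of 0.1 and with kallisto-style TPM. Members beyond counting noise numbered 8, where 18.6% of genes at or above the lowest member's count level passed. The number was 14 with ERCC scaling (50.1%) and 16 with kallisto-style counts (28.4%). Over the fits that leave out 1 replicate it ran from 0 without replicate 1 (0.232%) to 7 without replicate 3 (16.6%). Without a minimum difference, a lower bar by construction, limma called 32 members at gene level in place of 0 and 68 of 111 member transcripts in place of 13, where 61.6% of all transcripts passed. The median log2 difference of replicate 1 from the others went from -0.07 to 0.12 with ERCC scaling, which shifts all genes alike. The cause of the other changes was not tested. The mean TPM of 38 of 43 members moved by over 1 SD with kallisto-style tables, and the share over all genes was not computed. The median log2 difference of kallisto-style from RSEM-style TPM was -0.27 in the members and -0.25 over all genes tested. The members with the fewest counts were Cenpq, with 161, 155 and 174 counts, and Aurkc, and the 95% Poisson interval of Cenpq in replicate 1 runs from 10.8 to 14.7 TPM.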
